A study of Homo sapiens with 21 samples.

Results

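CPSF1 clusters in introns were the clusters that the deposited CPSF1 table placed in the region class intron. They numbered 14526 of the 21383 CPSF1 clusters, or 67.9% (95% Wilson interval 67.3 to 68.6), and 855812 clusters were listed over the 17 cluster files of the series. A cluster is a stretch of the genome covered by overlapping reads that carry T-to-C changes. Each intron cluster was put into 1 of 3 classes by its own sequence: those holding AATAAA, the canonical polyadenylation signal (2077 clusters), those holding ATTAAA, the most common variant, without AATAAA (721 clusters), and those holding neither (11728 clusters). Sequences are written with T, as in the deposited file, where the RNA has U.

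The series set up non-radioactive PAR-CLIP for several RNA-binding proteins, using Flp-In T-REx 293 cells, an established human line derived from embryonic kidney. PAR-CLIP crosslinks proteins to RNA that has taken up 4-thiouridine, and the crosslinked base then appears as a T-to-C change in the reads. In the CPSF1 library, cells carrying an integrated FLAG-HA tagged CPSF1 transgene were given 100 uM 4-thiouridine for 8 to 12 h, crosslinked with UV light of 312 or 365 nm at 0.3 J/cm2, and treated with RNase I at 0.5 U/ul before purification with anti-FLAG beads and the fluorescent protocol (fPAR-CLIP). The libraries set beside it came from lines of the same background with tagged FUBP3 or KHSRP, KH-domain proteins, each labelled in the same way and digested with RNase I at 0.15, 0.5 or 1.5 U/ul. Libraries of tagged AGO2, labelled in the same way, and of tagged U2AF1 entered a single comparison. U2AF1 cells were given 4-thiouridine at a higher concentration and for a shorter time, and RNase A+T1 was used. The line is a model with limits: the tagged protein is made from a transgene in addition to the endogenous one, the labels describe a sonicated RIPA lysate for KHSRP, and the lysis used for CPSF1 is not given in the sources used here. Every condition had 1 library, so the clusters are described with counting intervals, and no test between proteins was possible.

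CPSF1, also called CPSF160, is the large scaffold subunit of the cleavage and polyadenylation specificity factor, the complex that recognises polyadenylation signals in new transcripts. Within the complex the signal itself is gripped by CPSF4 (CPSF30) and WDR33, which sit on CPSF1. A GU-rich or U-rich element downstream is bound by a separate factor, CstF, and cleavage follows between signal and element. Introns hold many signal-like hexamers, and their use is held back in many genes by U1 snRNP.

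The classes were defined by sequence, and sequences of some of the best covered clusters are shown as examples. Those below were taken from the 10 clusters of each class with the most distinct read sequences, and capitals mark the first signal, so the lines without capitals hold neither. The canonical clusters came from introns of ERC1 (chr12:1202695-1202762, plus strand), FNDC3A (chr13:48991948-48991985, plus), PFKFB3 (chr10:6166490-6166519, plus), NDUFA11 (chr19:5894669-5894701, minus) and CHSY1 (chr15:101203082-101203113, minus). The variant clusters came from CDC73 (chr1:193231443-193231474, plus), ZNF146 (chr19:36232338-36232366, plus) and CSE1L (chr20:49088456-49088487, plus). The clusters with neither signal came from DKK2 (chr4:107003718-107003747, minus), NEK7 (chr1:198197261-198197295, plus), ZC3H7B (chr22:41355863-41355891, plus) and MORF4L1 (chr15:78860617-78860641, plus). The MORF4L1 cluster has its gene and region class from the deposited file only, as it lay outside the RefSeq span of that gene. It also lay on the tRNA gene TRK-CTT1-2. All coordinates are in hg38 and all sequences run 5′ to 3′ on the RNA strand.
ERC1: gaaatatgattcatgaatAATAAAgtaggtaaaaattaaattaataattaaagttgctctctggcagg
FNDC3A: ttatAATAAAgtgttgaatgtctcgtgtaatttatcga
PFKFB3: gaagtAATAAAgtgtttgtgtattgattga
NDUFA11: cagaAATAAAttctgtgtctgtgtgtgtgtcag
CHSY1: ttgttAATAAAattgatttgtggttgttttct
CDC73: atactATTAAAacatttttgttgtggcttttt
ZNF146: tttcATTAAAatgtttgttacttctgcct
CSE1L: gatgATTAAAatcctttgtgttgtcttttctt
DKK2: tgagacaggttagttttatactactgatga
NEK7: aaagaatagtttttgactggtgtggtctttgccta
ZC3H7B: gtgagcgctgggatggggggctgggggtc
MORF4L1: cgagccccacgttgggcgggtttgt
Over the 20 signal-bearing clusters from which these 8 were taken, 4 or 5 bases preceded the signal in 13, and the number ran from 3 to 18.

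The library was shallow. Its clusters held 180426 reads, of which 110078 (61.0%) lay in introns, against 200210 to 2172248 reads in clusters of the 6 FUBP3 and KHSRP libraries. An intron cluster had a median of 7 reads and a length of 29 nt, and the smallest had 5 reads. The deposited UniqueReads value counts distinct read sequences. It was 1 in 85.4% of the intron clusters, so that most clusters rested on copies of a single read sequence, with 6.33 reads per distinct sequence on average. At the same RNase dose the share with 1 distinct sequence was 79.9% in FUBP3 introns and 28.5% in KHSRP introns. Intervals, where given, cover counting error only, since neither reads nor clusters are independent molecules.

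The canonical signal was found in 14.3% of CPSF1 intron clusters (13.7 to 14.9). In intron clusters of the other libraries it was found in 1.43%, 1.62% and 0.965% for FUBP3 at 0.15, 0.5 and 1.5 U/ul, and in 2.46%, 2.02% and 1.57% for KHSRP at those doses. The CPSF1 share was thus 5.82 times the highest and 14.8 times the lowest of the 6. The variant without AATAAA was found in 4.96% of CPSF1 intron clusters (4.62 to 5.33), against 1.06% to 2.68% in the 6 libraries, which puts CPSF1 at 1.85 times the highest. In FUBP3 and KHSRP the variant was slightly more frequent than the canonical signal at every dose, within counting error in FUBP3, and in CPSF1 the canonical signal was the more frequent. Intron clusters of AGO2, the microRNA carrier, at 0.15 U/ul held AATAAA in 2 of 254, and those of the splicing factor U2AF1 at 1.5 U/ml RNase A+T1 in 13 of 2300. The U2AF1 cells had more 4-thiouridine for a shorter time, and the smallest U2AF1 cluster had 4 reads, against 5 in CPSF1.

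**Figure D1:**
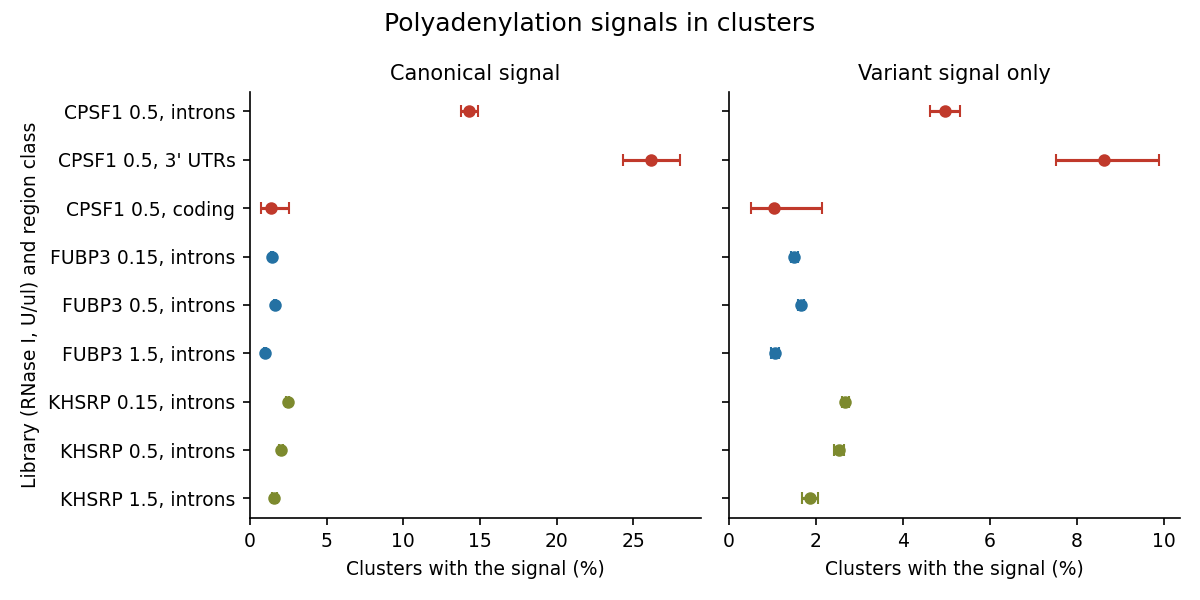
Share of clusters with the canonical signal (left) and with only the variant (right), in percent, with 95% Wilson intervals, for CPSF1 by region class and for intron clusters of FUBP3 and KHSRP by RNase I dose. CPSF1 introns, at 14.3% and 4.96%, lie above all 6 FUBP3 and KHSRP libraries and below CPSF1 3' UTRs, at 26.1% and 8.64%.

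Within the CPSF1 library, introns stood between the terminal and the coding parts of transcripts. AATAAA was in 14.3% of intron clusters and in 26.1% of 3' UTR clusters (24.3 to 28.1). It was in 1.35% of coding clusters (0.711 to 2.54), which is 9 of 667, and in 5 of 220 clusters in 5' UTRs. Clusters in introns of lincRNAs (12.2%, 32 of 263), without annotation (293 of 2246) and antisense to genes (17.6%, 45 of 256) had shares near that of introns, while clusters spanning an intron and coding sequence had 3 of 185. Introns held 66.3% of all CPSF1 clusters with AATAAA (64.6 to 67.9), close to their 67.9% of all clusters.

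Other single-base changes of the signal did not stand apart in this way. Among intron clusters without the canonical signal, ATTAAA stood at 5.79% (5.39 to 6.22), against at most 2.75% in the 6 libraries. The other 17 single-base variants were counted in the clusters with neither signal. TATAAA was the most frequent at 1.82% (1.60 to 2.08), inside the range of 1.20% to 3.35% of the other libraries, and AGTAAA, a variant used at some human sites, stood at 1.46%, inside 0.867% to 1.83%. AAAAAA was the single variant above the highest other library, by 1.04 times. The 5 hexamers with the same letters in another order, which share the base composition of the signal, all lay inside the range of the other libraries, with AAAATA at 1.53% against 1.10% to 2.49%. These hexamers can overlap one another within a cluster. Counted over all intron clusters, AATAAA was the most frequent of all hexamers, ahead of AAATAA (7.66%) and ATAAAA (7.14%), which often overlap it. In clusters with neither signal the leading hexamer was TTTCTT, in 4.78% of them, followed by TTTTCT and TTCTTT.

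The number of distinct read sequences separated the classes more than the number of reads did. AATAAA was in 12.7% of intron clusters with 1 distinct sequence (12.2 to 13.3), 19.6% with 2 (17.8 to 21.5), 33.3% with 3 (27.9 to 39.2), 42.3% with 4 (31.5 to 53.8) and 58.3% with 5 or more (46.8 to 69.0, 42 of 72 clusters). The variant ran from 4.65% with 1 to 9.72% with 5 or more, with wide intervals at the upper end (7 of 72). Clusters with neither signal made up 82.6% at 1 distinct sequence and 31.9% at 5 or more. The median cluster length was 29, 28, 28, 29 and 32 nt over these steps. Among clusters of 25 to 40 nt the AATAAA share was 12.8%, 20.3%, 33.5%, 45.0% and 53.4% over the same steps. In FUBP3 introns at 0.5 U/ul the AATAAA share was 1.60% at 1 distinct sequence and 2.91% at 5 or more, and in KHSRP introns 1.84% and 3.24%.

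**Figure D2:**
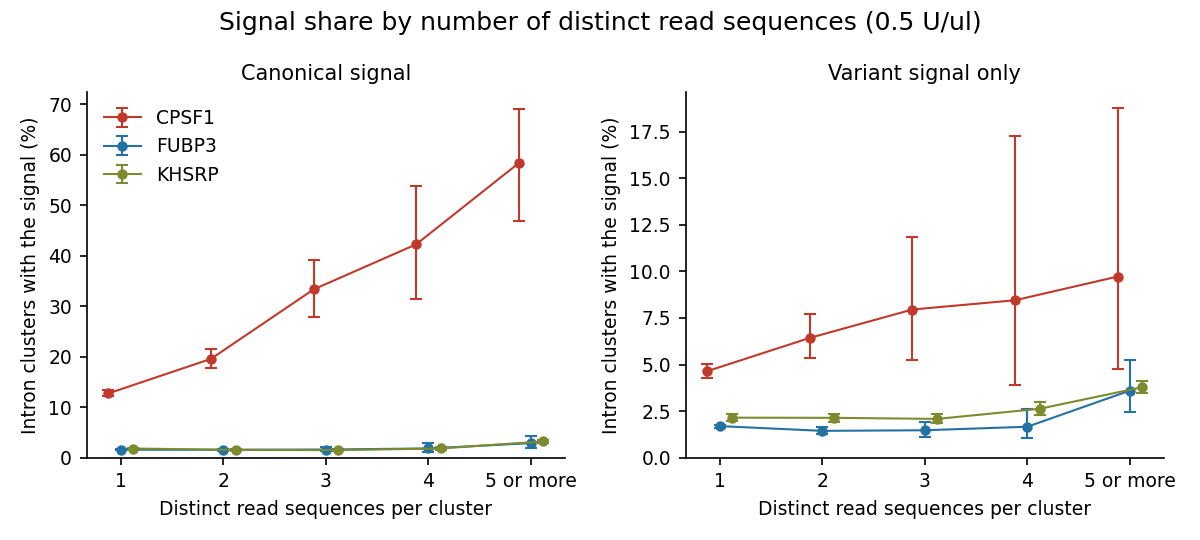
Share of intron clusters with the canonical signal (left) and with only the variant (right), in percent, by the number of distinct read sequences in the cluster, with 95% Wilson intervals, for CPSF1, FUBP3 and KHSRP at 0.5 U/ul RNase I. The canonical share in CPSF1 climbs in every step, with 12.7% at 1 and 58.3% at 5 or more, while FUBP3 and KHSRP stay at or below 3.24%.

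Reads alone did not sort the clusters in this way. Over 5 to 12 reads the AATAAA share stayed between 12.8% and 14.1%, and it was 20.5% at 13 to 19 reads and 35.5% at 20 or more. With 1 distinct sequence, clusters of 5 to 9 reads held AATAAA in 13.1% (12.5 to 13.8) and clusters of 10 or more reads in 10.7% (9.32 to 12.2). With 3 or more distinct sequences, the shares were 27.4% at 5 to 9 reads (20.3 to 35.9) and 44.5% at 10 or more (38.8 to 50.3). The 3' UTR clusters of CPSF1 showed a like order, with AATAAA in 22.1% at 1 distinct sequence and 53.7% at 5 or more (40.6 to 66.3).

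Seen from the classes, 23.8% of AATAAA clusters (22.1 to 25.7), 20.0% of ATTAAA clusters (17.2 to 23.1) and 12.6% of clusters with neither signal (12.0 to 13.2) had at least 2 distinct sequences. At least 3 were found in 7.70%, 4.72% and 1.82%. The mean number was 1.40, 1.28 and 1.16, while the median of 7 reads and the median length of 29 nt were the same in the 3 classes. More than 1 position of T-to-C conversion was recorded in 7.90%, 5.27% and 1.21% of clusters, always in clusters with at least 2 distinct sequences. Among clusters with at least 2, it was recorded in 33.1% of AATAAA clusters, 26.4% of ATTAAA clusters and 9.61% of those with neither. Base shares differed too, in part by definition, as the signals themselves add A and T. A and T made up 41.0% and 34.1% of the bases of AATAAA clusters, 35.0% and 38.6% in ATTAAA clusters and 22.4% and 32.4% in clusters with neither. Outside the first AATAAA, A made up 31.2% of the bases before it and 29.5% of those after it. AATAAA clusters held 15.2% of intron reads and ATTAAA clusters 5.05%.

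The signal lay close to the 5′ end of its cluster. A median of 6 nt preceded AATAAA (quartiles 4 and 12) and 16 nt followed it (9 and 20) in CPSF1. The first 20% of the possible positions held 35.0% of the signals (33.0 to 37.1) in CPSF1, against 18.2% in FUBP3 and 17.4% in KHSRP introns at 0.5 U/ul, and the last 20% held 8.09% in CPSF1, against 29.6% in FUBP3 and 27.1% in KHSRP. ATTAAA behaved alike, with 31.9% in the first 20% in CPSF1, against 19.8% in FUBP3 and 20.3% in KHSRP.

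The deposited mode location, a single position per cluster, lay on the 3′ side of the signal. It followed AATAAA in 74.0% of CPSF1 clusters (72.1 to 75.8), against 37.3% in FUBP3 and 38.1% in KHSRP. It fell on 1 of the 4 bases after the signal in 35.8% of CPSF1 clusters (33.8 to 37.9), against 11.5% in FUBP3 and 13.8% in KHSRP. The most frequent single position was the base right after the signal, with 302 CPSF1 clusters (14.5%). For ATTAAA the share on the next 4 bases was 38.1% (34.7 to 41.7) in CPSF1, against 11.5% in FUBP3 and 10.3% in KHSRP. The file does not define the mode location. It carried a T in 40.5% of the CPSF1 intron clusters, so it was not always a convertible base, and it was not measured apart from where the cluster starts. Every cluster needed a T-to-C change to be called, and AATAAA itself offers a single T.

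**Figure D3:**
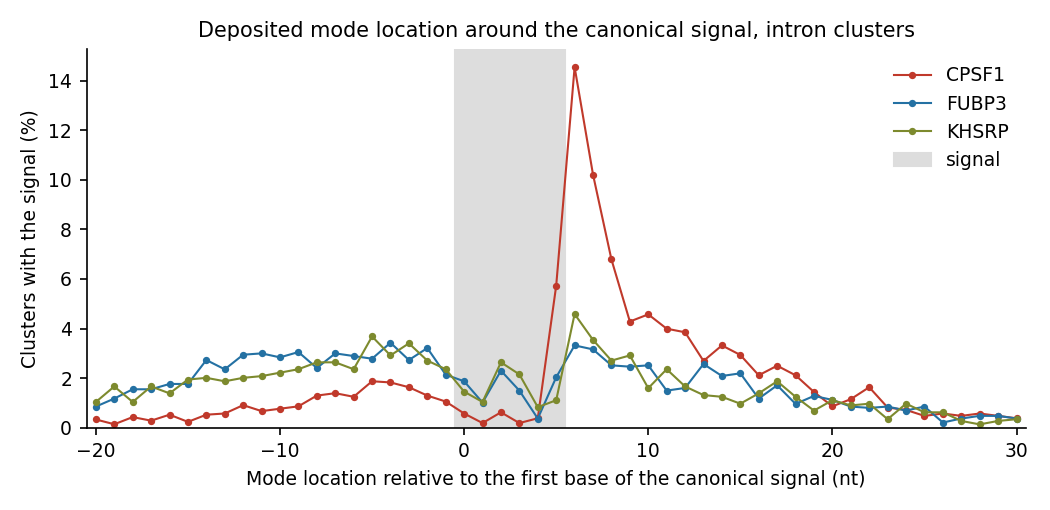
Share of the intron clusters with the canonical signal, in percent, by the distance in nt of the deposited mode location from the first base of the signal (grey band), for CPSF1, FUBP3 and KHSRP at 0.5 U/ul. CPSF1 peaks on the base after the signal at 14.5% and is low before it, and FUBP3 and KHSRP are spread over both sides.

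Letters of the downstream element were looked for on the 3′ side of AATAAA within the cluster. TGTG or GTGT, searched on the RNA strand and free to overlap each other, followed the signal in 15.3% of CPSF1 clusters (13.8 to 16.9), against 9.81% in FUBP3 and 12.8% in KHSRP, where fewer bases followed it (medians of 16 nt in CPSF1, against 10 and 12 nt). In CPSF1 the share was 13.7% with 1 distinct sequence, 14.6% with 2 and 31.9% with 3 or more (25.2 to 39.4). A median of 16, 16 and 19 nt followed the signal over these steps. Clusters with neither signal, searched over their whole length, held these letters in 23.3%, 24.7% and 35.7% at the same steps. The bases after AATAAA were 39.8% T in CPSF1, against 38.5% in FUBP3 and 38.9% in KHSRP, which is close to equal. The clusters ended a median of 16 nt past the signal, so the region where the downstream element usually lies was mostly outside them, and no genome sequence was used here to read on.

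The intron clusters fell in 5703 genes, with a median of 2 per gene. Of these, 2610 genes had 1 cluster, 2295 had 2 to 4, 678 had 5 to 9 and 120 had 10 or more. The genes with 2 or more (54.2%) held 82.0% of the clusters, but no gene dominated: the 10 genes with the most clusters held 1.77% of them and the 100 with the most 9.56%. At 0.5 U/ul, FUBP3 had intron clusters in 8365 genes with a median of 6 and KHSRP in 6961 genes with a median of 4. CPSF1 shared 4982 genes with FUBP3, which is 87.4% of the CPSF1 genes and 59.6% of the FUBP3 genes, and 4501 with KHSRP, 78.9% and 64.7%. RefSeq lists 20056 protein-coding genes, and having a CPSF1 intron cluster went with gene length, as given below. The sharing was not set against genes of like length or expression, so their part in it was not tested.

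Signal-bearing clusters occurred in 1961 genes, 34.4% of those with an intron cluster. Of these, 1418 had 1 such cluster, 358 had 2 and 185 had 3 or more, and 21 genes had 5 or more. The share of clusters with a signal was 16.6% in genes with 1 cluster, 18.8% in genes with 2 to 4, 21.2% in genes with 5 to 9 and 20.3% in genes with 10 or more, so recurrence within a gene went with a slightly higher share. Gene length moved along with it. The share was 11.7% in genes of up to 20 kb (9.81 to 13.9), 15.5% at 20 to 50 kb, 19.2% at 50 to 100 kb, 19.5% at 100 to 200 kb and 23.0% above 200 kb (21.8 to 24.3). The G and C content of the clusters was 51.1%, 44.8%, 41.0%, 40.3% and 38.0% over the same bins, and its part in the result was not tested.

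SLIT2, a secreted guidance cue for axons, had the most intron clusters, 41 with 359 reads. Of these, 11 held AATAAA and 3 held ATTAAA, the most signal-bearing clusters of any gene. They were spread over 343 kb of the 369 kb gene (chr4:20251905-20620561) with a median spacing of 5.84 kb between starts. None had more than 4 distinct sequences. The signal-bearing clusters averaged 1.36 distinct sequences, against 1.44 for the other SLIT2 clusters, so the class difference seen over all genes was not seen within SLIT2. SLIT2 held 0.282% of the CPSF1 intron clusters, against 0.241% in FUBP3 and 0.278% in KHSRP at 0.5 U/ul.

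ERC1, a scaffold protein of the cell cortex and of presynaptic sites, followed with 33 clusters, and it had the most reads, 441. Its 9 AATAAA and 2 ATTAAA clusters averaged 4.09 distinct sequences, against 1.41 for the rest. This mean rested on 4 clusters with 5 or more, and the other 7 averaged 1.14, so that the median was 1. The AATAAA cluster printed above had 59 reads and 16 distinct sequences, and another upstream of it (chr12:1201348-1201397) had 57 reads and 11. ERC1 also had the most intron clusters in FUBP3 (491) and KHSRP (371) at 0.5 U/ul. With any of the 6 FUBP3 and KHSRP libraries, 19 of its 33 CPSF1 clusters overlapped, against 11.0% of all CPSF1 intron clusters (1600 of 14526).

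AUTS2, a gene of neuronal development, had 32 clusters, of which 8 held a signal, over a span of 1195 kb. EIF4G3, a translation initiation scaffold, had 28 with 5 signals. ADK, adenosine kinase, had 23 with 7. The kinase receptor ERBB4 had 20 with 6, and SND1, a nuclease-like Tudor protein, had 20 with 4. TRIO had 21 with 1, and ATXN1, the ataxin-1 gene, had 20 with 1. PRRC2B had 19 with 2, packed into 127 kb, which gave 15.0 clusters per 100 kb, the highest of the 15 genes named by the rules on clusters, reads and signals. CTBP2, a transcriptional corepressor, had 18 clusters and no signal in any of them. The last 4 genes, MBNL1, DYM, CADM1 and CUX1, were named only for their number of signal-bearing clusters, so high counts follow from the rule. Over all intron clusters 19.3% held a signal. MBNL1, a splicing regulator, had 7 signals among 12 clusters, 6 of them AATAAA. DYM had 6 among 14, CADM1, an adhesion molecule, 5 among 17, and CUX1, a homeodomain factor, 5 among 16.

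**Figure D4:**
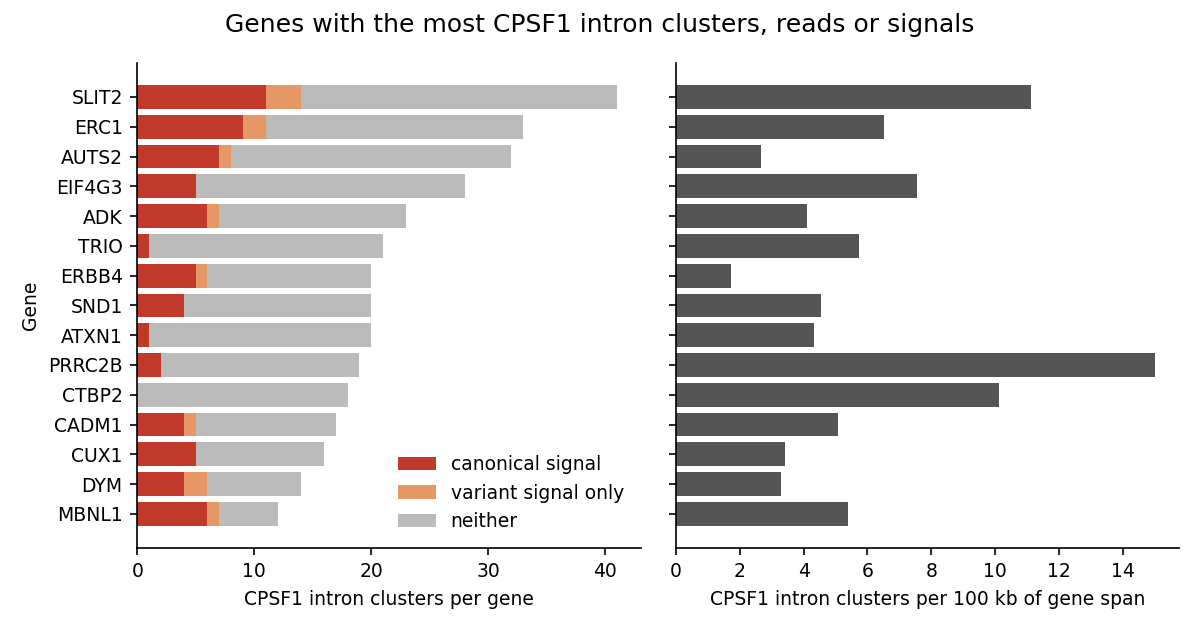
CPSF1 intron clusters per gene, divided by signal class (left), and per 100 kb of RefSeq gene span (right), for the 15 genes with the most intron clusters, reads or signal-bearing clusters. SLIT2 has 41 clusters with 14 signals, MBNL1 has 7 signals among 12, and CTBP2 has 18 clusters without a signal.

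Long genes led the counts. Density per 100 kb was ranked only among genes with at least 5 clusters. A short gene reaches that minimum only at a high density, so short genes head this ranking by construction. Across 5680 genes with a RefSeq span, cluster number and span had a Spearman correlation of 0.473, given as a description over genes of 1 library. Among 795 genes with at least 5 clusters and a span the median was 3.79 per 100 kb. The densest with all clusters inside the span, chosen after their values were seen, were RPL3 (74.2 per 100 kb), a ribosomal protein gene, PTBP1 (60.6), a splicing repressor, and SF3A2 (42.3) and SF1 (35.9), both splicing factors. Of the 24 clusters in these 4 genes, 1 held a signal. GNGT1 was left out, as its 9 clusters all lay outside the RefSeq span.

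Whether a gene had an intron cluster at all went with its length. Of 20056 protein-coding genes in RefSeq, 28.3% had one, with 8.54% up to 20 kb, 32.1% at 20 to 50 kb, 47.2% at 50 to 100 kb, 58.5% at 100 to 200 kb and 61.2% above 200 kb. Among lists of genes with a known link to intronic polyadenylation or long introns, 17 of 20 long genes had an intron cluster, with a median of 7 clusters, and 27.2% of their 180 clusters held a signal (21.3 to 34.2). ERC1 and AUTS2 were put on that list with their counts known. Without them 15 of 18 had a cluster, and their 115 clusters held a signal in 26.1% (18.9 to 34.8), against 23.0% in all genes above 200 kb and 19.3% over all intron clusters, both inside that interval. Of 13 DNA damage response genes with long introns, 12 had a cluster, in genes with a median span of 107 kb, with 8 signals in 39 clusters (20.5%, 10.8 to 35.5). These included BRIP1, a helicase, with 2 signals in 5 clusters, and RAD51B, a recombination factor, with 2 in 4. The checkpoint kinases ATM and ATR had 1 in 4 each.

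Of 20 factors of 3' end processing, 10 had an intron cluster, against 32.1% of all protein-coding genes of 20 to 50 kb. These 10 had a median span of 41.3 kb, a value that leaves out the members without a cluster. They had 7 signals in 26 clusters (26.9%, 13.7 to 46.1). PCF11, which ties cleavage to termination, had a single cluster, with AATAAA, 22 reads and 6 distinct sequences. RBBP6, a cleavage cofactor, had AATAAA in 2 of 3 clusters and up to 6 distinct sequences. WDR33, which contacts the signal, had it in 2 of 3, and CSTF3, a subunit of CstF, in 2 of 6. CPSF6 had 6 clusters without a signal. Of 22 splicing regulators known for retained introns, 14 had a cluster, beside the same 32.1% of all protein-coding genes of 20 to 50 kb. These 14 had a median span of 25.3 kb, again without the other members, and 5 signals in 36 clusters (13.9%, 6.08 to 28.7). Neither list was matched to other genes by length or expression, and the 32.1% was not limited to genes expressed in these cells. Among the splicing regulators HNRNPH1 had the most clusters, 6, without a signal. All of these list intervals reach over the 19.3% of all intron clusters, once ERC1 and AUTS2 are left out of the long genes.

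The position of each cluster along its gene was read from the RefSeq gene span. Of the 14526 clusters, 99.6% had a gene name found in RefSeq, and 99.4% of those lay inside the span of that gene. Where the strand of the gene was known, for 12199 clusters, all were on it. The first 10% of the gene held 12.5% of AATAAA clusters (11.2 to 14.0), 11.3% of ATTAAA clusters and 12.5% of clusters with neither, and the last 10% held 4.92% (4.07 to 5.94), 6.44% (4.86 to 8.49) and 6.49% (6.06 to 6.95). The median distance from the gene start was 45.9 kb, 48.8 kb and 37.7 kb, in genes with a median span of 126 kb, 136 kb and 106 kb. Fewer AATAAA clusters than clusters with neither signal lay within 1 kb of the start (1.07%, 0.709 to 1.62, against 2.73%, 2.45 to 3.04) or within 5 kb of the gene end (2.97%, 2.32 to 3.80, against 6.07%, 5.65 to 6.52). Over all classes 2.42% lay within 1 kb of the start in CPSF1, against 0.691% in FUBP3 and 0.688% in KHSRP.

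**Figure D5:**
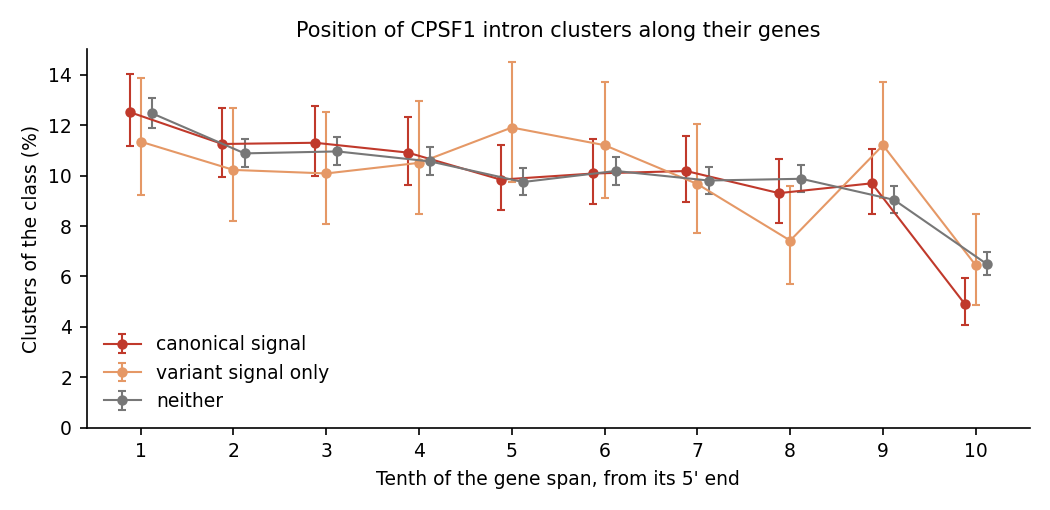
Share of each class of CPSF1 intron clusters, in percent, by steps of 10% of the RefSeq gene span from the 5′ end, with 95% Wilson intervals. The classes hold 11.3% to 12.5% in the first step, and in the last step AATAAA clusters hold 4.92% and clusters with neither signal 6.49%.

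Clusters seldom fell near the 3' end of another gene or on a small RNA gene. Annotated ends of shorter isoforms of the same gene were not looked at. Within 100 nt of the 3' end of another RefSeq gene on the same strand lay 6 of the 14526 clusters, 1 of them with AATAAA and 5 with neither signal. Small RNA genes were overlapped by 11 clusters of the intron class, 10 of them with neither signal, and 3 of these were among the 10 clusters of that class with the most distinct sequences. The cluster in KCTD2 with 53 reads and 14 distinct sequences lay on the tRNA gene TRR-TCG3-1. The one assigned to MORF4L1, with 65 reads and 13 distinct sequences, lay on TRK-CTT1-2. It began at -12.3 kb from the RefSeq start of MORF4L1, outside the span of that gene. The cluster in MATR3 with 34 reads lay on SNORA74D. The 2 clusters of the intron class with the most distinct sequences, in DKK2 and PID1, lay on no small RNA gene. Their T-to-C changes were recorded at 1 position each, in 94.1% and 90.5% of reads. Whether their sequences also match repeated RNA genes elsewhere in the genome was not looked at. DKK2, a secreted Wnt antagonist, had 34 reads with 34 distinct sequences, and it was the single intron cluster in which every read was distinct. PID1 had 21 reads with 18.

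Most positions had no called cluster in the FUBP3 or KHSRP libraries, while reads outside clusters were not looked at. Of the CPSF1 intron clusters, 2.93% (2.67 to 3.22) shared at least 1 nt and the strand with a FUBP3 cluster at 0.5 U/ul, and 2.51% (2.27 to 2.78) a KHSRP cluster. From the other side, 0.238% of all FUBP3 clusters and 0.404% of all KHSRP clusters overlapped a CPSF1 intron cluster. With any of the 6 libraries, overlap was found for 15.0% of AATAAA clusters (13.5 to 16.6), 16.6% of ATTAAA clusters (14.1 to 19.5) and 9.97% of clusters with neither (9.44 to 10.5). It was 10.2% for clusters with 1 distinct sequence, 13.6% with 2, 18.9% with 3, 33.8% with 4 and 45.8% with 5 or more (34.8 to 57.3). Among clusters with 3 or more, 31.3% of those with AATAAA (24.6 to 38.8), 26.5% with ATTAAA and 22.5% with neither (17.4 to 28.6) overlapped, intervals that reach over each other. The abundance of the RNAs was not measured, so its part in these overlaps was not tested.

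CPSF1 intron clusters were mostly solitary. Another of them lay within 100 nt of 1.28% of clusters (1.11 to 1.48) and within 1000 nt of 7.48%. By class, 1.97% of AATAAA clusters (1.46 to 2.67), 0.832% of ATTAAA clusters and 1.19% of clusters with neither had one within 100 nt. AATAAA occurred at least 2 times in 13.3% of the AATAAA clusters, and 141 clusters held both hexamers.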

How the data were processed

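The analysis used the cluster tables of single libraries that the authors deposited. Per the labels' processing notes, bcl2fastq 2.20.0, cutadapt 1.15 and hg38 were used, while the sources used here give neither the aligner nor the cluster caller nor the annotation. The deposited values are raw counts of reads, distinct read sequences and conversion positions per cluster, with no normalization. The deposited T-to-C value is a fraction of the reads of a cluster. Reads outside clusters were not used, so reads in clusters stand for depth.

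Intron clusters were taken by the deposited region class, and AATAAA had precedence over ATTAAA in a cluster with both. Finding the signals was tested on simulated sequences. Shares carry Wilson intervals at 95%, for counting error only. Genes were matched by name to RefSeq (GRCh38.p14) for spans, and strands came from its promoter table. Overlaps used bedtools 2.31.1 with at least 1 nt on the same strand. Scripts ran in Python 3.11.15 (scipy 1.17.1, pandas 2.3.3, numpy 2.4.6, matplotlib 3.10.9).

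Genes were named as the 10 with the most intron clusters, reads or signal-bearing clusters, with ties by distinct sequences, and as members of 4 lists. Clusters were named as the 10 of each class with the most distinct sequences. Members, lists and alternatives were chosen with earlier results of these data known. The radiolabelled RNase T1 libraries of FUBP3, KHSRP and AGO2 were not used, as their RNase and annotation or build differ. With 1 CPSF1 library there was no test between groups. The alternatives were minimum reads or distinct sequences, cluster length, 1 cluster per gene, leaving out the genes with the most clusters, RefSeq spans and the overlap rule.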

Additional observations from a re-analysis of the deposited data

How the results depend on the processing

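Shares of the signal classes kept within their intervals among clusters of 25 to 40 nt, with 1 cluster per gene, without the 10 genes with the most clusters and inside RefSeq gene spans. With at least 10 reads AATAAA was in 17.1% of intron clusters, ATTAAA in 5.64% and neither in 77.3%, and with at least 3 distinct sequences in 39.3%, 8.35% and 52.3%. The share of clusters with at least 2 distinct sequences was 57.5%, 43.8% and 25.5% for the canonical signal, the variant and neither with at least 10 reads, 46.7%, 39.6% and 24.9% with 1 cluster per gene, the one with the most distinct sequences, which raises it by construction, and 21.9% for AATAAA and 11.3% for neither at 25 to 40 nt. It was not run with at least 3 distinct sequences, where it is complete by construction. Genes with at least 2 clusters made up 23.7% with at least 10 reads and 7.55% with at least 3 distinct sequences, and for signal-bearing clusters, 27.7% of genes in the full set, the values were 11.0% and 3.78%, as fewer clusters were kept. Introns held 60.7% of CPSF1 clusters with at least 10 reads, 39.4% with at least 3 distinct sequences and 61.0% of reads. Overlap with FUBP3 was 1.56% when 50% of both clusters had to overlap, 3.75% with at least 10 reads and 9.09% with at least 3 distinct sequences, and with KHSRP 1.23%, 3.20% and 7.13%. Where no construction is named, the cause was not tested. The settings for neither signal, those for signal-bearing genes, and the long genes without ERC1 and AUTS2, were chosen after seeing the data. No paired analysis was possible because the CPSF1 condition had 1 library.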
